A study of Homo sapiens with 4 samples.

Results

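SMD2 peaks were followed over 6 genes of long noncoding RNA (lncRNA): FTX, NUTM2B-AS1, LINC00665, NEAT1, PVT1 and TUG1. The peaks are all entries that the authors' annotation assigned to these gene symbols, 34 of the 9401 peaks in the list and 6 of its 6399 gene symbols. The genes were chosen by their names and their peak numbers in this same list, so the numbers of peaks per gene are a description and no test was made of them. FTX, NUTM2B-AS1 and LINC00665 stood for lncRNA genes with many peaks, and NEAT1, PVT1 and TUG1 for well-known lncRNA genes with 1 peak each.

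The list comes from PAR-CLIP in HEK293T, an established line of human embryonic kidney origin, with 3 libraries from the SMD2 immunoprecipitation and 1 input library. All cells received 4-thiouridine at 200 uM for 14 h and light of 365 nm, which crosslinks the modified base to a bound protein, and the pulldown used an anti-FLAG antibody. The list is pooled under the name of the immunoprecipitation and gives a position, a gene and an annotation class for each peak, with no height, strand or value per library. Depth behind a peak is therefore unknown, the input has no values to compare with, and abundance of the RNA and contact with SMD2 cannot be told apart. Cell line markers could not be checked, since the list holds no expression.

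SMD2, the product of SNRPD2, is a subunit of the ring of Sm proteins that closes around a uridine-rich site of the spliceosomal small nuclear RNAs. These particles recognise splice sites in nascent RNA, of coding genes and of noncoding ones alike. Many long noncoding RNAs are spliced and polyadenylated like mRNA but stay in the nucleus. FTX, from the X-inactivation centre, is a regulator of XIST in mouse and the host of several microRNAs. NEAT1 is the scaffold of paraspeckles, nuclear bodies that hold RNA-binding proteins.

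The 3 genes with several peaks differed in where the peaks lay. In FTX they fell into 2 separate stretches, in NUTM2B-AS1 all but 1 lay toward the 3′ side, and in LINC00665 every peak lay outside the RefSeq span of the gene. Introns held 10 of 13 peaks in FTX, 6 of 9 in NUTM2B-AS1 and 8 of 9 in LINC00665. The 3 genes with 1 peak had it in an exon (NEAT1), at a transcription termination site (PVT1) and in a 3′ UTR (TUG1).

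**Figure D1:**
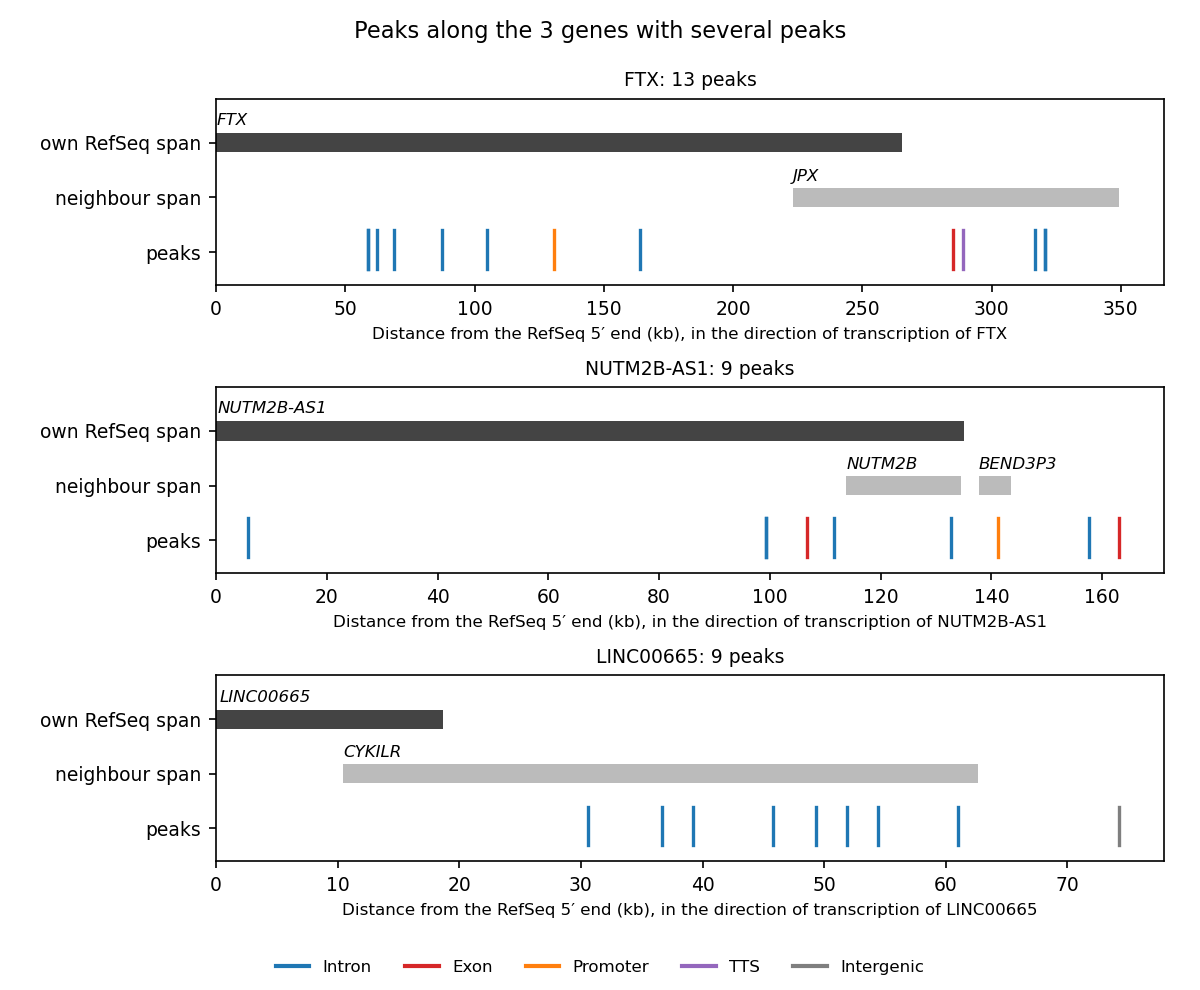
Peaks of FTX, NUTM2B-AS1 and LINC00665 as coloured ticks (colour gives the annotation class) against distance in kb from the RefSeq 5′ end of each gene, with dark bars for the gene's own RefSeq span and pale bars for neighbouring RefSeq genes. FTX has 8 peaks under its own bar and 5 under that of JPX, and LINC00665 has 0 under its own bar and 8 under that of CYKILR.

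FTX (ENSG00000230590.13) spans 74028136 to 74293574 on chromosome X in RefSeq, 265439 nt on the minus strand (GRCh38.p14, the same build as the hg38 positions of the list). Its 13 peaks were the most of any of the 1007 lncRNA genes in the list. Along the direction of transcription the first lay 58.7 kb from the RefSeq 5′ end, so the beginning of the gene held none. The upstream stretch held 8 peaks between 74129382 and 74234901. Of these, 7 were intronic and 1, at 74162694 to 74162748, carried a promoter label. At 55 nt this was the widest peak of the 6 genes, and it lay 130.8 kb from the RefSeq 5′ end. The list assigned it through an Ensembl transcript whose start was not used here.

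The other stretch of FTX lay beyond the 3′ end of its RefSeq span. It held 5 peaks between 73972763 and 74008684, of which 3 were intronic, 1 was exonic and 1 was labelled as a termination site. The authors assigned them to FTX through 2 of its 5 listed transcripts. All 5 also lay inside the RefSeq span of JPX, a lncRNA gene on the opposite strand that runs from 73944324 to 74070384 and whose RNA activates Xist in mouse. JPX itself was assigned 0 peaks. Because the list gives no strand, an FTX transcript and a JPX transcript cannot be told apart as the source of these 5 peaks. The RefSeq spans of FTX and JPX overlap by 42.2 kb, and this shared part held 0 peaks of any gene. It lies within the widest gap between FTX peaks, 120.7 kb.

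FTX carries microRNAs within its RefSeq span, and their mature sequences are shown to place these known products of the transcript relative to the peaks. RefSeq lists 6 mature forms on the strand of FTX (GRCh38.p14), printed from 5′ to 3′ with the seed, bases 2 to 8, in capitals.
hsa-miR-374b-5p: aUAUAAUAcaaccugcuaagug
hsa-miR-374b-3p: cUUAGCAGguuguauuaucauu
hsa-miR-421: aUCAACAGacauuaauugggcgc
hsa-miR-545-5p: uCAGUAAAuguuuauuagauga
hsa-miR-545-3p: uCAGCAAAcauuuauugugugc
hsa-miR-374a-3p: cUUAUCAGauuguauuguaauu

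The 6 forms listed had 6 different seeds. Of MIR374A only the 3p form was among them, and seeds of forms not listed were not compared. None of the 12 microRNA entries of RefSeq in this span, hairpins and the opposite strand included, was overlapped by a peak. The 13 FTX peaks covered only 313 nt in all, beside a span of 265439 nt. No share over the rest of the list is given, so the absence of overlap is a description only. The closest forms were those of the MIR374B and MIR421 pair, between chrX:74218392-74218414 and chrX:74218587-74218608. They lay 6.29 to 6.49 kb from the intronic peak that starts at 74224901. The MIR545 and MIR374A forms, between chrX:74287126-74287147 and chrX:74287295-74287316, lay 52.2 to 52.4 kb from the nearest FTX peak, in the peak-free beginning of the gene.

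Other genes of the X-inactivation centre were counted from a list of 10, FTX among them. Peaks were assigned to 4 of the 10, and to 3 of the 9 without FTX, which was itself chosen for its peaks. Of all RefSeq symbols, 22.3% of the 20056 protein-coding ones and 1.88% of the 18330 lncRNA ones were assigned a peak. These shares are a description only, since neither expression nor length was matched. XIST, the RNA that coats the inactive X chromosome, had 7 peaks, CHIC1 had 2 intronic peaks and RLIM, a ubiquitin ligase that promotes XIST expression in mouse, had 1 in its 3′ UTR. TSIX, which is antisense to XIST, and JPX were among those with 0. Without strand in the list, the assignment of peaks to XIST rather than TSIX could not be checked. The XIST peaks differed in class from those of FTX, with 4 promoter labels, 2 exonic and 1 intronic. The last of them ended 120.1 kb from the first FTX peak.

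NUTM2B-AS1 (ENSG00000225484.7) is transcribed from the minus strand of chromosome 10, antisense to the coding gene NUTM2B, and spans 79691500 to 79826594 in RefSeq. It had 9 peaks, of which 6 were intronic, 2 exonic and 1 labelled promoter. They were assigned through 5 transcripts, with at most 3 peaks on any of them. A single intronic peak of 14 nt, at 79820862 to 79820875, lay 5.73 kb from the RefSeq 5′ end. After it came 93.6 kb without a peak, and the other 8 lay within 63.7 kb.

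Of the 9 peaks of NUTM2B-AS1, 6 lay inside its RefSeq span. The intronic peak at 79693905 to 79693931 was also inside NUTM2B, which lies on the plus strand and was assigned 0 peaks itself. The 3 peaks outside lay 6061 to 27926 nt beyond the 3′ end of the span. The promoter-labelled peak at 79685419 to 79685439 fell in BEND3P3, a transcribed pseudogene with 0 peaks of its own. The exonic peak at 79663556 to 79663574 and the intronic peak at 79668926 to 79668947 fell in no RefSeq gene.

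LINC00665 (ENSG00000232677.11), a lncRNA gene for which RefSeq gives CIP2A-BP, the name of a small peptide encoded in it, as a synonym, had 9 peaks on chromosome 19 between 36257514 and 36301144. Its RefSeq span, 36313061 to 36331753 on the minus strand, held 0 of them. The distance beyond the 3′ end of the span was 11917 nt for the nearest peak and 55531 nt for the farthest. All 8 intronic peaks were assigned through the same transcript, and the peak that is farthest from the gene was classed as intergenic. The 8 intronic peaks lay inside the RefSeq span of CYKILR, a lncRNA gene of the plus strand that runs from 36269084 to 36321291 and was assigned 0 peaks. Without strand, these peaks too cannot be allotted to either RNA.

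The RefSeq starts on either side of the 8 intronic LINC00665 peaks are shown to place these peaks between the 2 genes, which face each other. The starts cannot settle which RNA holds the peaks, since the list gives no strand. Each window holds 300 bases, 5′ to 3′ on the strand of its gene, with the 250 bases before the start in small letters and the 50 bases from the start on in capitals (RefSeq, GRCh38.p14). The LINC00665 window is chr19:36331704-36332003 on the minus strand and the CYKILR window is chr19:36268834-36269133 on the plus strand.
LINC00665: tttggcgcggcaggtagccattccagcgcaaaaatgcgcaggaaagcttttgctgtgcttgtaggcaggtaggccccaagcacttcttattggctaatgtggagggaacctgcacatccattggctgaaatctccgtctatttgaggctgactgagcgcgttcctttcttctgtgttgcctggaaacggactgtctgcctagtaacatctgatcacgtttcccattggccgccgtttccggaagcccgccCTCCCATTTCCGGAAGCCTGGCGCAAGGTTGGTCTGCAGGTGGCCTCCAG
CYKILR: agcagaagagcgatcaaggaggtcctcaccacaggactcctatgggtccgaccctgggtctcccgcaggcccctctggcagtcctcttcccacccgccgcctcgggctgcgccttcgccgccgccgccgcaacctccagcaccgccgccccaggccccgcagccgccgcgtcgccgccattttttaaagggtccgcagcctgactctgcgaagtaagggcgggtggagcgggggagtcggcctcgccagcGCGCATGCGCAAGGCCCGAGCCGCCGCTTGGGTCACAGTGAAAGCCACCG

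The 8 intronic peaks lay 30.6 to 61.0 kb from this start of LINC00665. They lay 1.66 to 32.0 kb downstream of this start of CYKILR. RefSeq lists a further CYKILR start at 36309610, and all 8 lay upstream of it, by 8.48 to 38.9 kb. The CYKILR window had a G and C content of 70.7% and the LINC00665 window 55.3%. None of the 34 peaks of the 6 genes fell in a promoter window of the RefSeq table, which holds 4 of the 6 genes. NEAT1 and PVT1 have no window there, so their own starts could not be examined. No share over the rest of the list is given, so the absence of peaks in these windows is a description only.

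The nearest peaks of other genes were in genes of zinc finger proteins. ZNF565 had 5 peaks, the nearest of them 18.8 kb from the LINC00665 peaks, and ZFP14 had 1 peak at 57.4 kb on the other side. No peak of another gene lay among those of LINC00665.

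NEAT1 (ENSG00000245532.11), at 65422798 to 65445540 on chromosome 11, had a single peak of 18 nt at 65434366 to 65434383. The list classed it as exonic. The peak lay 11.6 kb from the lower-coordinate end of a span of 22.7 kb, at 50.9% of its length. A short and a long NEAT1 isoform start together, and the long one carries the paraspeckle. The list assigned the peak through 1 transcript. Isoform ends were not used here, so which isoform gave the peak was not tested.

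Paraspeckle proteins, which bind NEAT1, were counted from a list of 14 genes. Peaks were assigned to transcripts of 11 of them. HNRNPH3 had 4 peaks, 3 of them intronic, and MATR3, a nuclear matrix protein, had 3. NONO and PSPC1, RNA-binding proteins that form dimers in the paraspeckle, had 2 each, as did SFPQ and SMARCA4. DAZAP1 and CPSF6 were among those with 0. The share of all protein-coding symbols, given above, was 22.3%, again without matching.

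PVT1 (ENSG00000249859.14), a lncRNA gene beside MYC, spans 306733 nt on chromosome 8 from 127794524 to 128101256. It had 1 peak of 26 nt, at 127932674 to 127932699, 138.2 kb from the lower-coordinate end, labelled as a termination site. A second peak lay inside its span, 77.8 kb away, at 128010549 to 128010565. The authors assigned that peak to RNU4-25P, a copy of the U4 small nuclear RNA. U4 carries a Sm ring, and its many copies in the genome resemble each other closely, so this assignment is uncertain.

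TUG1 (ENSG00000253352.10), at 30969265 to 30979395 on chromosome 22, had 1 peak of 26 nt at 30975951 to 30975976, 6.70 kb from its RefSeq 5′ end. Both the authors' list and RefSeq type TUG1 as protein-coding, which goes against its usual description as a long noncoding RNA. Its peak was classed as 3′ UTR.

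A list of 24 much studied lncRNA genes, which holds FTX, NEAT1, PVT1 and TUG1, gave a wider setting. Peaks were assigned to 9 of the 24, and to 5 of the 20 that remain without those 4 genes, beside the 1.88% of all RefSeq lncRNA symbols. Beside the 4 genes just named and XIST, these were DLEU2 with 2 peaks and FIRRE, LINC-PINT and MIR100HG with 1 each. Here too the shares were not matched for expression or length and are a description only. Among the 15 with 0 peaks were MALAT1, which lies next to NEAT1, and KCNQ1OT1 and MEG3.

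Most lncRNA genes in the list had few peaks. Of the 1007, 84.5% had 1 peak, as NEAT1 and PVT1 did. FTX ranked first, and NUTM2B-AS1 and LINC00665 shared the second place with 9 peaks each. Apart from them only MIR924HG reached 8, so that 0.0998% of the 1002 other lncRNA genes had 8 or more. Next in number came ENSG00000234147, ENSG00000267605 and XIST with 7 each, while 5 other lncRNA genes had 5 peaks and 10 had 4. Ordered by peaks outside the intergenic class, the next were ENSG00000280441, ENSG00000289349 and MIR4435-2HG with 5 such peaks and AATBC, DANT2 and ENSG00000242588 with 4, ties being taken in order of symbol. MIR924HG, the gene nearest in number, had 7 intronic peaks and 1 promoter label, spread over 470902 nt.

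**Figure D2:**
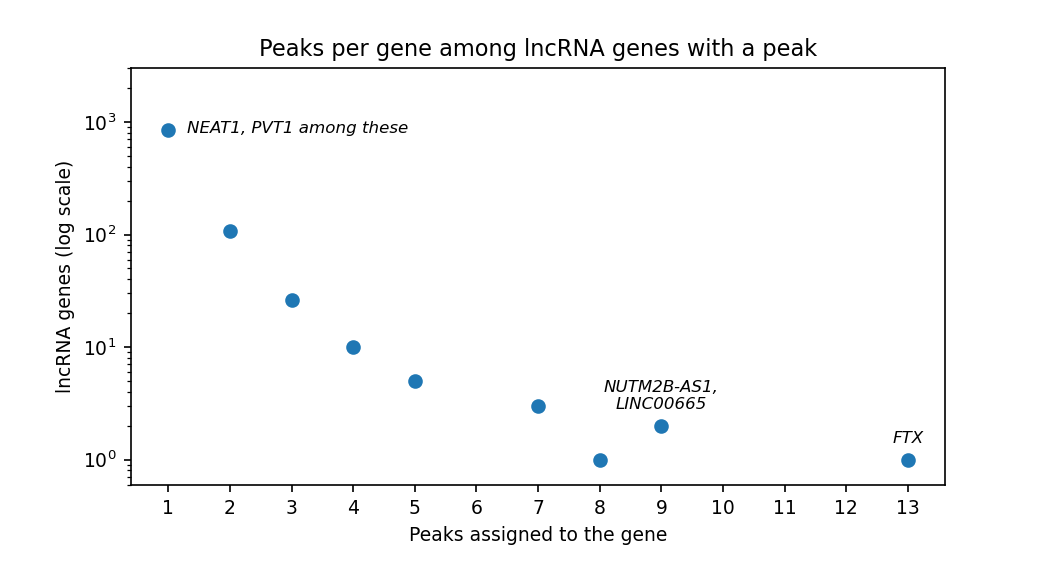
Number of lncRNA genes (log scale) against the number of peaks assigned to a gene. The points run from 851 genes with 1 peak, NEAT1 and PVT1 among them, to a single gene with 13, FTX.

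Set against the length of the RefSeq span, FTX had 3.01 peaks per 100 kb inside its span, NUTM2B-AS1 4.44, NEAT1 4.40, PVT1 0.326 and TUG1 9.87. LINC00665 had none inside its span. The median of 222 other lncRNA genes with a peak inside their span was 2.77 per 100 kb (interquartile range 0.975 to 7.99). FTX was thus higher than 53.6% of these genes, NUTM2B-AS1 higher than 64.9% and PVT1 higher than 6.31%. TUG1, with 1 peak in the shortest span, was the only member above that interquartile range.

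Peaks outside the RefSeq span of the assigned gene made up 17 of the 34 (50%). They were 5 of 13 in FTX, 3 of 9 in NUTM2B-AS1, 9 of 9 in LINC00665 and 0 of the 3 peaks of NEAT1, PVT1 and TUG1. Among other lncRNA peaks whose symbol is in the RefSeq table, 38.9% of 453 lay outside. The shares of FTX (38.5%) and NUTM2B-AS1 (33.3%) were thus close to that background or below it, and only LINC00665 was above it. Of 19 other lncRNA genes with 3 or more peaks and a RefSeq match, 2 had none inside, EOLA2-DT and LINC01962.

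By class, introns held 24 of the 34 peaks, 70.6% (Wilson 95% interval 53.8 to 83.2%, which covers counting error only), against 43.8% of 1237 peaks of other lncRNA genes and 59.2% of 7169 peaks of other protein-coding genes. The intergenic class accounted for 1 of the 34 peaks and for 27.9% of the peaks of other lncRNA genes. With that class left out, the intronic share was 72.7% of 33 peaks (55.8 to 84.9%) in the 6 genes, against 60.8% of 892 in other lncRNA genes (57.5 to 63.9%), and the intervals overlapped. Peaks of 1 gene share their transcript and are not replicates, and no test was made of these shares. Exons held 4 of the 34 peaks, promoters 2, termination sites 2 and 3′ UTRs 1.

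**Figure D3:**
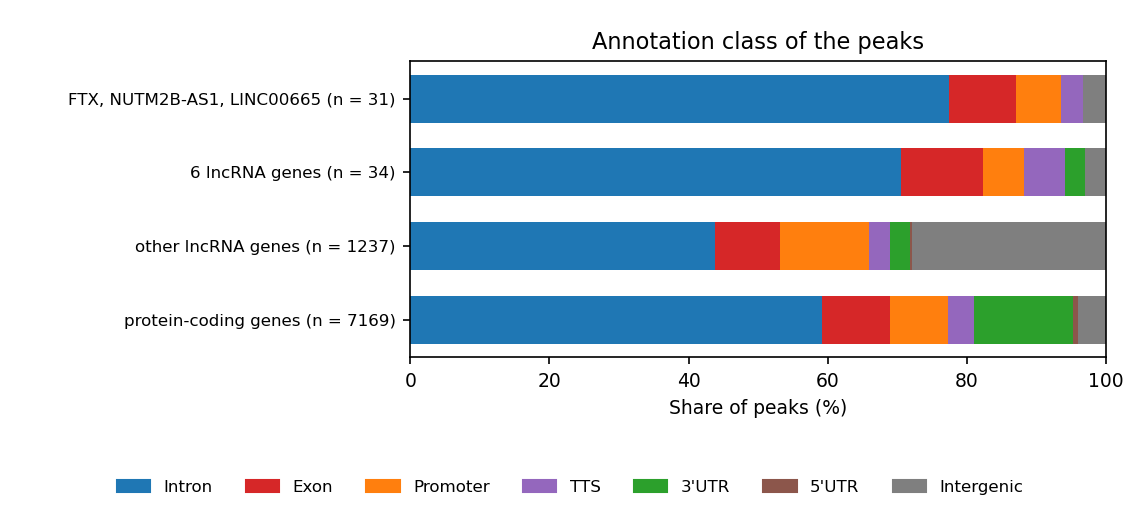
Share of peaks in each annotation class (percent), for FTX, NUTM2B-AS1 and LINC00665 alone, for all 6 genes, for other lncRNA genes and for other protein-coding genes, with the number of peaks beside each bar. The intron part is longest in the upper bars, 77.4% and 70.6%, against 43.8% for other lncRNA genes, where the intergenic part takes 27.9%.

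Peak widths ranged from 4 to 55 nt over the 6 genes, with a median of 22 nt, which is also the median of other lncRNA peaks (interquartile range 18 to 29 nt). LINC00665 had narrow peaks, with widths of 8 to 25 nt and a median of 17 nt. Its median was below the 24 nt of FTX and the 21 nt of NUTM2B-AS1, although the 3 ranges overlapped. Widths of 17 nt or less were found in 6 of 9 LINC00665 peaks, 2 of 13 FTX peaks and 3 of 9 NUTM2B-AS1 peaks, beside 20.2% of other lncRNA peaks and 12.1% of other protein-coding peaks. This cut is the median of LINC00665 itself, so most of its own peaks had to fall at or below it. The shares are therefore a description only.

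**Figure D4:**
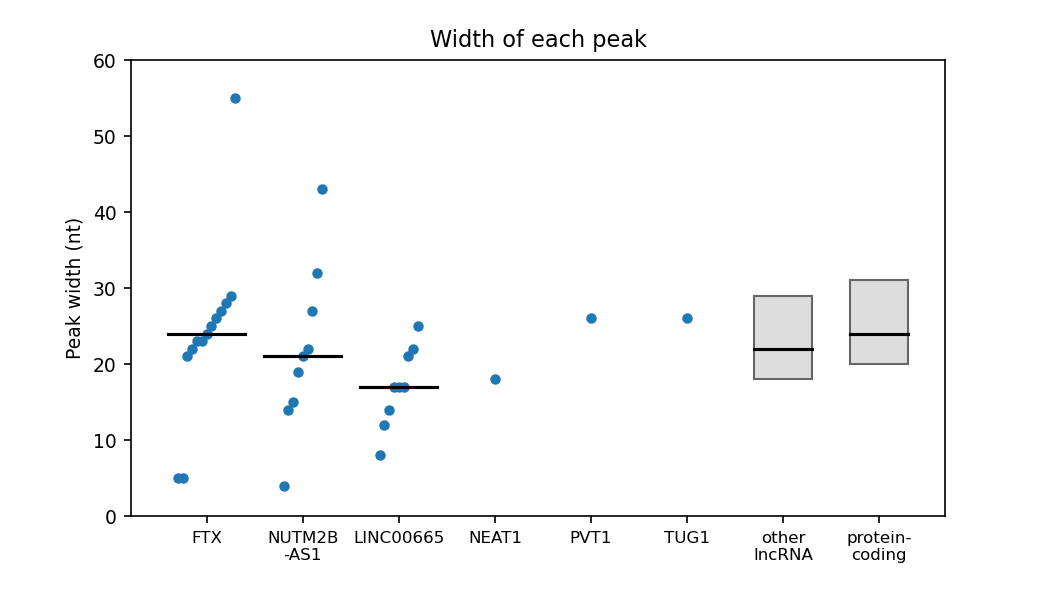
Width of each peak in nt (points) for the 6 genes, with a line at the median of genes with several peaks, and on the right boxes from the first to the third quartile with a line at the median for other lncRNA genes and for other protein-coding genes. All 9 points of LINC00665 lie at or below 25 nt, as do 64.6% of other lncRNA peaks.

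Some neighbouring entries touch. FTX had 2 pairs in which 1 peak starts where the other ends, and NUTM2B-AS1 had 1 such pair. In FTX a peak of 21 nt at 73972763 was followed by 1 of 5 nt, and a peak of 5 nt at 74234875 by 1 of 22 nt. In NUTM2B-AS1 a peak of 4 nt at 79727207 was followed by 1 of 32 nt. Each pair together covered 26 to 36 nt. With each pair counted as 1 peak, FTX had 11 peaks and NUTM2B-AS1 8, while LINC00665 kept 9. Entries in such pairs made up 6 of the 34 peaks (17.6%) and 2% of the 9367 peaks of the rest of the list. These shares are not matched for peaks per gene. Of the 6399 genes in the list, 72.2% had 1 peak and so could hold no pair within the gene.

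These pairs also decide how close the peaks seem to lie. With another peak of the same gene within 1000 nt counted as near, 6 of the 34 peaks were near another, against 7.28% of other lncRNA peaks. All 6 belonged to touching pairs. With peaks within 50 nt merged, 0 of 31 were near another, which allows a share of up to 9.68% (3 counts of 31; the Wilson 95% interval reaches 11.03%), against 4.35% of 1218 merged peaks of other lncRNA genes.

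Apart from the pairs, peaks were kilobases apart. With touching peaks merged, the median gap was 18.0 kb in FTX and 8.46 kb in NUTM2B-AS1, against 11818 and 7864 nt before merging, with merged ranges of 3643 to 120697 nt and 4897 to 93619 nt. In LINC00665 it was 4769.5 nt, with a range of 2505 to 13199 nt, the smallest median and the narrowest range of the 3 genes. The steps from the start of 1 LINC00665 peak to the start of the next, in order of position, were 13.2, 6.62, 2.52, 2.55, 3.52, 6.61, 2.52 and 6.05 kb. Of 18 other genes with 8 or more peaks, 3 symbols of small RNA families (Y_RNA, 5_8S_rRNA and Metazoa_SRP) were left out because their peaks are spread over several chromosomes. Among the remaining 15, 13 of them protein-coding, median gaps before merging ran from 397 nt to 72398 nt with a middle value of 23789 nt. The share of peaks within 1000 nt of another, before merging, ran from 0 to 100% in these genes, with a middle value of 0%. Touching pairs were found in 2 of the 15. LINC00665 peaks extended over 43631 nt in all, FTX peaks over 262139 nt and NUTM2B-AS1 peaks over 157320 nt, against a middle value of 184785 nt in those 15 genes.

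**Figure D5:**
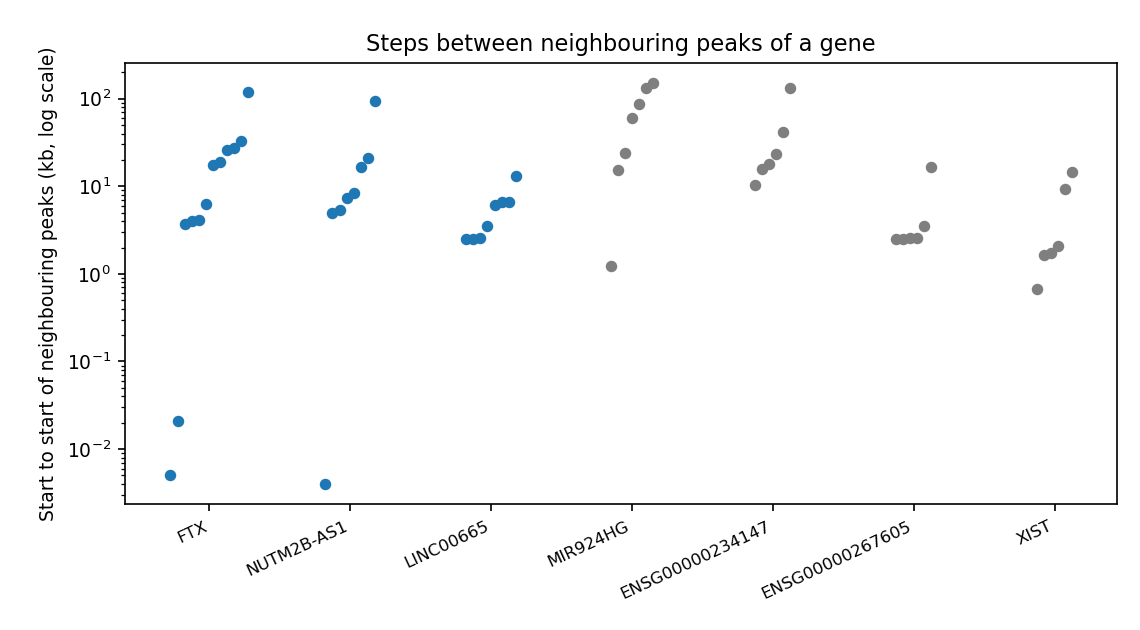
Distance in kb (log scale) from the start of each peak to the start of the next peak of the same gene, for FTX, NUTM2B-AS1 and LINC00665 (blue) and for the 4 other lncRNA genes with the most peaks (grey). The lowest points of FTX and NUTM2B-AS1 are the touching pairs, and several points of LINC00665 and ENSG00000267605 lie together near 2.52 kb.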

How the data were processed

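PAR-CLIP libraries from HEK293T cells were grouped by their titles into 3 SMD2 immunoprecipitated libraries and 1 input library. Trim Galore 0.6.10, Bowtie2 2.5.1 and the build hg38 are named per the submitters' processing notes, without their roles. The authors deposited 1 list of peak positions with gene and class. How peaks were called, with which threshold and whether from pooled libraries or against the input, is not given in the sources used here. The depth behind the list is unknown. Starts, counted from 0 in the list, are printed counted from 1.

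Members were matched by gene symbol, and all 34 peaks had a RefSeq match (GRCh38.p14), as did 36.6% of other lncRNA peaks. RefSeq gives spans but no exons, so the authors' classes were used as given. Strand came from the RefSeq table of gene starts. A peak was inside a span when wholly within it. Shares have Wilson 95% intervals and medians order-statistic intervals, which cover counting error only. No p-value was computed, since peaks of 1 list are not replicates. Named are the 6 genes, the 10 other lncRNA genes with the most peaks outside the intergenic class, RefSeq genes that hold a member peak, and the genes with most peaks in each gene list; the peaks beside LINC00665, EOLA2-DT, LINC01962 and further genes of those lists were named after their values were seen. Members and lists were chosen with earlier results of these data known. The functions were checked on simulated data. Computations ran in Python 3.11.15 with scipy 1.17.1, numpy 2.4.6 and pandas 2.3.3, and figures were drawn with matplotlib 3.10.9.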

Additional observations from a re-analysis of the deposited data

How the results depend on the processing

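No paired analysis was possible because the list has no value per library. Alternative settings gave 50 further values for 16 results, and 42 of them stayed near the reported one: shares and medians within the 95% interval of the reported value, counts, ranks and densities within a ratio of 1.5. Some of the 42 could not move. Leaving out the entries that follow the sorted part of the list removed none of the 34 peaks. Merging cannot change the density of a gene with 1 peak. Without FTX the genes had 21 peaks in place of 34, and with only peaks inside the RefSeq span 17. Under that restriction LINC00665, which shared rank 2, dropped out with 0 peaks, NUTM2B-AS1 ranked 4 in place of 2, and NEAT1 and PVT1 ranked 37 in place of 157. It left 226 of the 1007 lncRNA genes, since 644 have no RefSeq match and 137 have no peak inside their span. The rank that LINC00665 lost there is not counted among the 50 values. The share of peaks near another was 0% after merging, in place of 17.6%, and 52.9% with 5000 nt as the distance. FTX had 4.96 peaks per 100 kb between its first and last peak, in place of 3.01 within its span. Peaks without height, strand or a value per library set the limit on what can be said of any of these RNAs.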

Other observations

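LINC00665 and ENSG00000267605, both lncRNA genes of chromosome 19, had peaks at like distances from each other. ENSG00000267605 lies 968.7 kb beyond the last LINC00665 peak and had 7 peaks between 37269883 and 37300241. Its steps from start to start were 2541, 3511, 2537, 16695, 2523 and 2528 nt. In LINC00665 steps of 2524, 2552 and 2519 nt stood beside steps of 3520 nt and, at 2 places, of 6621 and 6610 nt. Steps of 2500 to 2600 nt made up 3 of 8 in LINC00665 and 4 of 6 in ENSG00000267605. In FTX and NUTM2B-AS1 there were 0 of 12 and 0 of 8. In all other genes of the list 12 of 2962 steps fell in this window, each in a different gene, and 1263 of the 2962 were of 10000 nt or less. The window was set after the LINC00665 steps had been seen, so the counts are a description. No sequence of the region was used, and whether a repeated unit lies under these peaks was not tested.

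Very narrow entries were common in touching pairs. The 3 pairs of FTX and NUTM2B-AS1 each held an entry of 4 or 5 nt, and of the 94 pairs of the rest of the list 35.1% held an entry of 5 nt or less. Of 89 peaks of 5 nt or less in the whole list, 40.4% belonged to such a pair.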
